A study of Mus musculus with 4 samples.

Results

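Ezrin, thymosins and actin regulators were described as a set of 10 genes: Ezr, Rdx, Msn, Clic4, Tmsb4x, Tmsb10, Pfn1, Cfl1, Actb and Actg1. Each is 1 row among the 23697 loci of the deposited table, matched by its RefSeq identifier. The set was chosen by measured values, because Ezr and Clic4 were lower and Tmsb4x higher after Kdm5b knockdown. The difference between knockdown and control is therefore given for all 10 genes as a description. A fit across all loci also holds these genes, and nothing is read from its outcome for them. RNA came from WW6 mouse embryonic stem cells, a line mostly of 129/Sv background (about 75%) with C57/B6J (20%) and SJL (5%), grown without feeder cells on gelatin with 10% fetal bovine serum and leukemia inhibitory factor at 3000 units per ml. All cells were transiently transfected with Lipofectamine LTX and Plus reagent 24 hours after seeding, for 4 hours in serum-free medium. Knockdown cells (2 libraries, A and B) received small interfering RNA against Kdm5b, an eraser of methyl groups on lysine 4 of histone H3. Control cells (2 libraries, A and B) received small interfering RNA against GFP, called a mock control construct in their treatment labels. The interval between transfection and harvest is not given in the sources used here, and the labels do not state whether libraries A and B came from different cultures. The errors below, like any p-value, cover only library-to-library spread, which may be technical. Standard errors of log2 fold changes come from the fit across all loci. They draw partly on the spread of other loci, so they are not a gene's own spread. Paired values are printed in the order A, B.

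Actin filaments grow from a pool of monomers that thymosins hold in reserve and profilin delivers to growing ends, while cofilin severs old filaments and returns monomers to the pool. Ezrin, radixin and moesin tie filaments to the plasma membrane. Their front part binds membrane proteins, their tail binds actin, and phosphorylation of a threonine in the tail keeps them open. In early mouse embryos ezrin lies at the apical surface of cells.

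Sequences of the families are shown because they bear on how far short fragments can tell their members apart. The thymosins are the smallest transcripts of the set. The coding sequences of Tmsb4x (GRCm38 chrX:167207501-167208036, minus strand) and Tmsb10 (chr6:72957618-72958012, minus strand) both have 135 bases with the stop codon. Capitals mark the 40 positions at which they differ without gaps. The 5′ to 3′ sequences come from GENCODE M21.
Tmsb4x: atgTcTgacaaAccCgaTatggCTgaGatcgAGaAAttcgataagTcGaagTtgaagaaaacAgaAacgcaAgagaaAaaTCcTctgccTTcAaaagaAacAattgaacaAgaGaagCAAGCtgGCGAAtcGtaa
Tmsb10: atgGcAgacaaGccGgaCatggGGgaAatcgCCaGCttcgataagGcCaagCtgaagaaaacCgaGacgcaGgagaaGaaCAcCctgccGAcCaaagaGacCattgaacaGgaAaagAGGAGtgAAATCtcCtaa

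The last 90 coding bases of Ezr (GRCm38, coding span chr17:6739303-6782643, minus strand), Rdx (chr9:52060892-52086479, plus strand) and Msn (chrX:96096232-96166634, plus strand) encode the actin-binding tail. Capitals mark the 33 positions at which the 3 genes are not all alike.
Ezr: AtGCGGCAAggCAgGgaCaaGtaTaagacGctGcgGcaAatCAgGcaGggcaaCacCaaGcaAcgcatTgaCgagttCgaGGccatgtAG
Rdx: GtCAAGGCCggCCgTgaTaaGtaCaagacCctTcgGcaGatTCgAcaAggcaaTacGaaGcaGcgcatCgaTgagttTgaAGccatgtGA
Msn: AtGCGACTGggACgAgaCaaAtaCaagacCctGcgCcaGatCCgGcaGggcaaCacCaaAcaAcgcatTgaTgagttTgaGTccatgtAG

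Over the whole coding sequence Ezr and Rdx were 69.9% identical, Ezr and Msn 72.6%, and Rdx and Msn 71.3%. No identical run between members of this family was longer than 32 bases. The actins are closer. Actb and Actg1 were 88.7% identical over 1128 coding bases, with an identical run of 62 bases. Their last 120 coding bases (GRCm38, coding spans chr5:142903798-142905686 and chr11:120346390-120348091, both minus strand) differ at the 7 capital positions.
Actb: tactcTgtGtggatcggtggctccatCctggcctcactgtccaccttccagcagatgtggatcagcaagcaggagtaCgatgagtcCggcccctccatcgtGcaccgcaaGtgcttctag
Actg1: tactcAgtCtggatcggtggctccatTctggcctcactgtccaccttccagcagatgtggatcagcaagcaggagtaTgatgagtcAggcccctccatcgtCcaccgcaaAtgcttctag

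Close copies elsewhere in the annotation were found for 3 of the 10 genes, taking matches of at least 95% identity over at least 200 bases to GENCODE M21 transcripts of another gene. For Actg1 they came from 5 pseudogenes, with up to 99.6% identity, and covered 57.8% of the transcript. For Tmsb10, 1 other gene matched 72.9% of the transcript, and for Cfl1, 2 other genes matched 36.2%. FPKM of these 3 genes is uncertain, since the sources do not say how fragments with several matches were counted. No such match was found for Ezr, Clic4 or Tmsb4x.

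Promoters are shown for the 3 genes on which the set was chosen, as the 250 bases before the start in RefSeq (GRCm38.p6), with GGGCGG (the Sp1 core) and CCAAT in capitals on either strand. They lie at chr17:6782781-6783030 for Ezr, chr4:135272761-135273010 for Clic4 and chrX:167209219-167209468 for Tmsb4x, all on the minus strand.
Ezr promoter: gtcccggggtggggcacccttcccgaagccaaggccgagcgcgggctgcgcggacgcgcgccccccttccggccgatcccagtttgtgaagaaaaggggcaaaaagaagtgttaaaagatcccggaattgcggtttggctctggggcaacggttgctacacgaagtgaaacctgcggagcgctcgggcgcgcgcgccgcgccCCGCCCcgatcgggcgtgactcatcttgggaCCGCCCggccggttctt
Clic4 promoter: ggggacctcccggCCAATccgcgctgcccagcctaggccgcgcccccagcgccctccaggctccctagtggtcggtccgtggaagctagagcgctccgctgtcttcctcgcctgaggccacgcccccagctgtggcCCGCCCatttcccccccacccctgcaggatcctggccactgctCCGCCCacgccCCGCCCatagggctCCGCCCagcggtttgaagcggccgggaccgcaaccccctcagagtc
Tmsb4x promoter: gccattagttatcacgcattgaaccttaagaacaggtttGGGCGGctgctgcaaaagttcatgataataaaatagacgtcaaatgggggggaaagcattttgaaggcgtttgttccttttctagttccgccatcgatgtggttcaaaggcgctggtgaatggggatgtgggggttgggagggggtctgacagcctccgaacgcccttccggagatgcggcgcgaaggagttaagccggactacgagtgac

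GGGCGG occurred 2 times before Ezr, 4 times before Clic4 and 1 time before Tmsb4x. At least 1 copy was present in 7 of the 9 genes with a promoter in the table (Actb had none listed), against 32.7% of 32851 mouse promoters. Here and below, a gene counted when any of its promoters matched, while the shares over all are per promoter. The 9 genes have 12 listed promoters. CCAAT was found in 3 of the 9 genes (33.8% of all promoters) and TATAAA in 0 (12.4%). The CArG box, the site bound by serum response factor, was searched on both strands and matched 1 of the 9, Actg1 (1.47% of all promoters). The Ezr promoter had an observed over expected CpG ratio of 1.14, higher than in 98.6% of promoters, and that of Tmsb4x 0.953, higher than in 91.7%. That of Clic4 was 0.671, against a median of 0.373 over all promoters. Matches of this kind describe letters and were not tied to the expression values.

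Values are FPKM, in which fragments are divided by transcript length and by the library's mapped fragments, as the authors deposited them. Fragment numbers were estimated from the steps between low values. They put knockdown A at 76.5% of the depth of control B, against 98.1% and 101% for knockdown B and control A. The estimate for knockdown A rests on 557 low values, against 1738 to 2051 in the other libraries. Knockdown A also listed 11953 loci at 0, where the other libraries listed 8131 to 8609, so results are also given without it. Kdm5b was at 99.7 FPKM in control A, 145 in control B, 22.7 in knockdown A and 31.1 in knockdown B, a mean of 22.0% of control. The stem cell markers Pou5f1, Nanog, Sox2, Zfp42, Esrrb, Utf1, Dppa5a and Tdgf1 each stood at 89.4 FPKM or more in every library, with summed levels of 3493 and 4286 FPKM in controls and, in knockdown, 4626 and 3885 FPKM. Of these 8, 1 (Esrrb) had both knockdown libraries below both controls and 0 had both above. Esrrb measured 174 and 137 FPKM in controls and 107 and 121 in knockdown, a log2 fold change of -0.44 (standard error 0.23). Over the 11784 loci whose mean reached 1 FPKM, 16.9% lay below both controls.

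Ezr (NM_009510; mm9 chromosome 17, 6942480 to 6987129), the ezrin gene, measured 77.5 and 99.2 FPKM in controls, against 31.5 and 38.2 in the knockdown libraries. Both knockdown libraries lay below both controls, and the nearest pair still differed 2.03-fold. The group means were 88.3 ± 15.4 and 34.8 ± 4.72 FPKM (SD, n = 2 each), so knockdown stood at 39.4% of control. In bulk RNA, fewer cells of a type and less RNA per cell cannot be told apart. On the log2(FPKM + 1) scale the fold change was -1.31 (standard error 0.25). The values rest on an estimated 992 and 1253 fragments in the controls and 304 and 473 in the knockdown libraries. Ezr ranked 1106 and 934 among all loci in the controls, and 2981 and 2471 in knockdown A and B.

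For radixin and moesin the groups lay closer together. Rdx (NM_001104616 and 2 more; mm9 chromosome 9, 51810166 to 51896843) had control values of 71.0 and 86.9 FPKM and knockdown values of 95.2 and 88.6 FPKM. The knockdown libraries lay just above, by 1.62 FPKM at the nearest point, with a log2 fold change of 0.22 (standard error 0.23). Its interval holds 1 other locus, which reached at most 1.97 FPKM. Msn (NM_010833; mm9 chromosome X, 93291384 to 93363892) was the lowest of the 10, with control values of 16.6 and 14.0 FPKM and knockdown values of 12.2 and 20.8 FPKM. The 2 knockdown libraries lay on either side of the controls, and the log2 fold change was 0.06 (standard error 0.35).

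The mix of the 3 RNAs within the family is a quantity that does not depend on a library's scaling factor. Ezr made up 46.9% and 49.6% of the summed FPKM of Ezr, Rdx and Msn in the controls, and 22.7% and 25.9% in knockdown A and B. Rdx made up 43.0% and 43.4%, and then 68.5% and 60.0%. The ratio of Ezr to Rdx was 1.09 and 1.14 in the controls and 0.331 and 0.431 in knockdown. The family's summed level was 183 ± 24.8 FPKM in controls and 143 ± 6.13 FPKM in knockdown (SD, n = 2 each). Ezr thus exceeded Rdx in each control library and stood below it in each knockdown library.

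Clic4 (NM_013885; mm9 chromosome 4, 134769885 to 134828675) encodes a chloride intracellular channel protein that also associates with the actin cytoskeleton. It measured 80.1 and 52.8 FPKM in controls, against 26.5 and 27.9 in the knockdown libraries. The knockdown libraries were close to each other, while control A was 1.52 times control B. The nearest libraries of the 2 groups differed 1.89-fold. The means were 66.5 ± 19.3 and 27.2 ± 0.995 FPKM (SD, n = 2 each), a log2 fold change of -1.23 (standard error 0.28). Without control A it was -0.93, and without control B -1.52. Estimated fragments were 1357 and 881 in the controls and 339 and 457 in the knockdown libraries.

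Tmsb4x (NM_021278; mm9 chromosome X, 163645026 to 163647150) encodes thymosin beta 4, the main sequestering protein of actin monomers in many cells. It had control values of 218 and 382 FPKM and knockdown values of 971 and 676 FPKM. Both knockdown libraries were above both controls, the nearest pair by 1.77-fold. Spread within groups was wide, with control A at 0.572 times control B and knockdown A at 1.44 times knockdown B. The means were 300 ± 116 and 824 ± 209 FPKM (SD, n = 2 each), a ratio of 2.75 and a log2 fold change of 1.49 (standard error 0.34). Leaving out control A gave 1.08 and leaving out control B gave 1.89. The gene held an estimated 536 and 924 fragments in the controls and 1799 and 1606 in knockdown. In a transcript of 768 bases, against fragments of 300 bp, the length correction of FPKM weighs more than in the longer genes of the set.

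Tmsb10 (NM_025284 and 2 more; mm9 chromosome 6, 72907341 to 72908742), encoding the related thymosin beta 10, overlapped between the groups. It was at 154 FPKM in control A, 109 in control B, 137 in knockdown A and 157 in knockdown B, with a log2 fold change of 0.17 (standard error 0.25). Tmsb4x made up 58.6% and 77.7% of the summed thymosin FPKM in control A and B, and 87.7% and 81.2% in knockdown. The summed level of the 2 thymosins was 373 and 491 FPKM in controls and, in knockdown, 1108 and 833 FPKM.

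**Figure D1:**
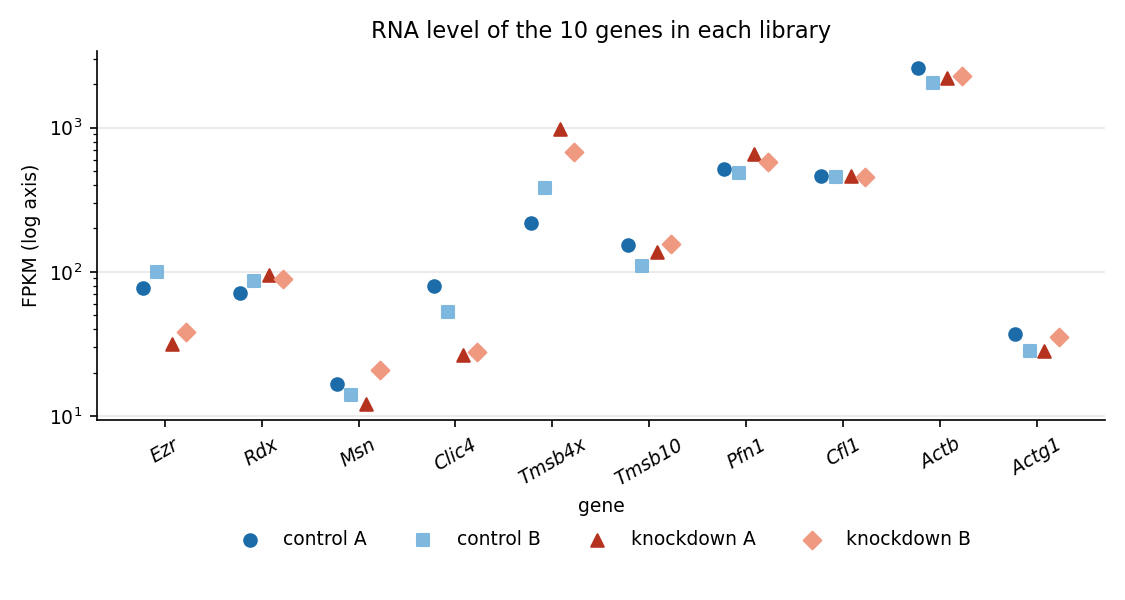
FPKM of each of the 10 genes on a log axis, with 1 point per library (blue for controls, red for knockdown). Ezr and Clic4 points in knockdown lie below both controls and Tmsb4x points above, while Cfl1 stays between 452 and 461 FPKM.

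**Figure D2:**
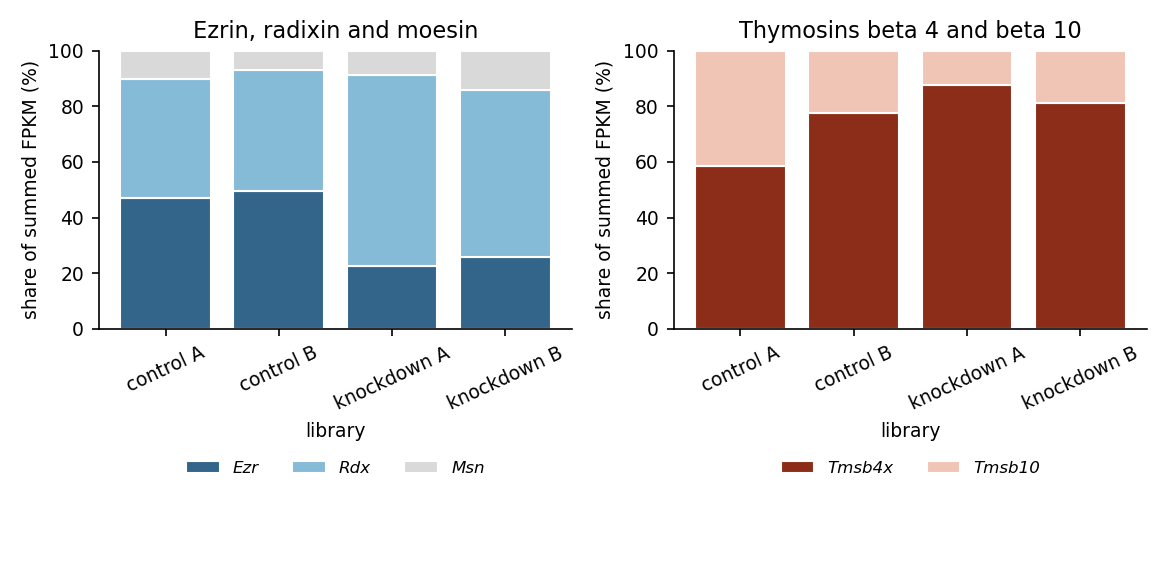
Percent of the summed FPKM of ezrin, radixin and moesin genes (left) and of the 2 thymosin genes (right), 1 bar per library. Ezr takes 46.9% and 49.6% in the controls and 22.7% and 25.9% in knockdown, and Tmsb4x ranges from 58.6% in control A to 87.7% in knockdown A.

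Pfn1 (NM_011072; mm9 chromosome 11, 70465349 to 70468152), the gene of profilin 1, measured 513 and 481 FPKM in controls, against 654 and 579 in the knockdown libraries. Both knockdown libraries lay above both controls, but the nearest differed only 1.13-fold and the log2 fold change was 0.31 (standard error 0.20). Cfl1 (NM_007687; mm9 chromosome 19, 5490455 to 5494031), the gene of cofilin 1, was the steadiest of the 10. It had control values of 459 and 452 FPKM and knockdown values of 461 and 452 FPKM, a coefficient of variation of 1.01% over the 4 libraries. Its log2 fold change was 0.0046 (standard error 0.19), and turned to -0.01 with upper-quartile scaling and -0.03 with quantile normalization.

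Actb (NM_007393; mm9 chromosome 5, 143664795 to 143668403), encoding beta actin, was at 2606 FPKM in control A, 2035 in control B, 2193 in knockdown A and 2289 in knockdown B. The knockdown libraries lay between the controls, with a log2 fold change of -0.04 (standard error 0.23) that turned to 0.09 with quantile normalization. Actg1 (NM_009609; mm9 chromosome 11, 120207004 to 120209798), encoding gamma actin, measured 36.9 and 28.3 FPKM in controls, against 28.2 and 35.3 in the knockdown libraries, again overlapping (log2 fold change -0.03, standard error 0.28). Actb thus exceeded Actg1 by 70.7 and 71.9 times in the controls and 77.8 and 64.9 times in knockdown. Beside this gap stand the 5 pseudogenes that match 57.8% of the Actg1 transcript, and their part in it was not tested. The microRNA gene Mir6935 is listed over the same interval as Actg1. It was at 0 in control A and knockdown B, at 655 FPKM in control B and at 2138 FPKM in knockdown A. The fragments behind these values were not estimated, and in a short transcript few fragments can give a high FPKM. The libraries with the lower Actg1 values were thus those in which Mir6935 was above 0, and its part in the Actg1 values was not tested.

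Over all 4 libraries the order of levels per length was Actb (2281 FPKM), Tmsb4x (562), Pfn1 (557), Cfl1 (456), Tmsb10 (139), Rdx (85.4), Ezr (61.6), Clic4 (46.8), Actg1 (32.2) and Msn (15.9). The ranges over libraries overlapped for the neighbours Tmsb4x and Pfn1, Rdx and Ezr, Ezr and Clic4, and Clic4 and Actg1. They did not overlap for the other 5 neighbouring pairs. The order was not the same in each group. Tmsb4x stood below Pfn1 in both controls, at 0.425 and 0.794 times its FPKM, and above it in both knockdown libraries, at 1.48 and 1.17 times. The coefficient of variation over the 4 libraries was 52.4% for Ezr, 53.9% for Clic4 and 59.1% for Tmsb4x, and between 1.01% and 23.5% for the other 7 genes. It includes the difference between groups on which Ezr, Clic4 and Tmsb4x were chosen, so nothing is read from this contrast.

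Across the 10 genes, 2 had both knockdown libraries below both controls, 3 had both above, and 5 overlapped. Over the 11784 loci whose mean reached 1 FPKM, the shares were 16.9% below and 15% above. With a log2 fold change of at least 1 in size as well, the counts were 2 lower and 1 higher (Ezr, Clic4 and Tmsb4x), against 3.9% and 1.37% of loci. Since the set was chosen on this contrast, nothing is read from these shares. In limma's test across all loci, adjusted by Benjamini-Hochberg, 0 of the 10 genes passed an adjusted p of 0.05, against 0.0339% of loci on the lower side and 0% on the higher. At an unadjusted limma p under 0.05 the counts over all loci were 176 lower and 114 higher. In the set the log2 fold changes had a median of 0.03, and over all loci tested -0.03.

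**Figure D3:**
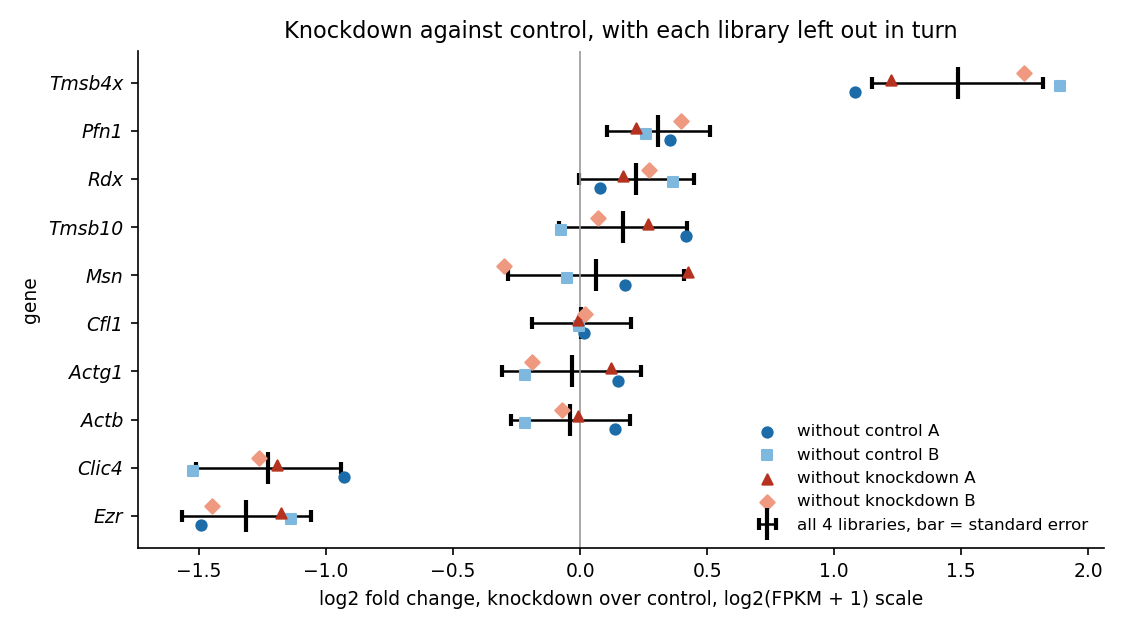
Log2 fold change of knockdown over control for each gene (black bar, with its standard error) and the value with each library left out (coloured points). Ezr lies between -1.49 and -1.14, Clic4 between -1.52 and -0.93 and Tmsb4x between 1.08 and 1.89, while 5 of the other genes take both signs.

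Without knockdown A, the shallower library, the log2 fold changes were -1.18 for Ezr, -1.19 for Clic4 and 1.22 for Tmsb4x. With each library left out in turn, Rdx ranged from 0.08 to 0.37 and Pfn1 from 0.22 to 0.40. In these 5 genes the groups do not overlap, so leaving out 1 library cannot turn the sign. Msn, Tmsb10, Cfl1, Actb and Actg1 turned sign with at least 1 library left out. Msn, for example, stood at 0.42 without knockdown A and at -0.30 without knockdown B.

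A wider list of 109 genes of actin regulation in 9 groups, the 10 genes included, was used to place the set in its pathway. Of these, 95 were tested and 0 passed the limma threshold in either direction, against 0.0339% of all loci lower and 0% higher. Over all 11784 loci tested, 176 were lower and 114 higher at an unadjusted limma p under 0.05. Among the 85 listed genes outside the set, 1 (Cfl2) was lower and 0 higher at that p. On the log2 scale 64 genes were below 0 and 31 above, with a median of -0.19, while 6229 of all loci tested were below 0 and 5555 above, with a median of -0.03. Both knockdown libraries lay below both controls for 22.4% of the 85 genes outside the set and above for 7.06%, against 16.9% and 15% of all loci. The lean of the median to lower values was not seen without knockdown A. The median was 0.0078 without that library, -0.39 without knockdown B, -0.09 without control A and -0.24 without control B. For the 85 genes outside the set it was -0.24 with all libraries and -0.0026 without knockdown A.

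Ezrin, radixin, moesin and their membrane partners had 11 tested genes, with a median log2 fold change of -0.51, which was -0.19 without knockdown A. Nherf1, the scaffold that binds ezrin's front part, had control values of 37.6 and 41.7 FPKM and knockdown values of 14.9 and 34.5 FPKM. Podxl, the sialomucin podocalyxin that ezrin anchors, was at 8.16 FPKM in control A, 7.76 in control B, 3.71 in knockdown A and 5.498 in knockdown B. Both genes lay below both controls in each knockdown library, with log2 fold changes of -0.77 (standard error 0.41) and -0.69 (standard error 0.37), which were -0.19 and -0.46 without knockdown A. Nherf2 (-1.43, standard error 0.87) and Epb41l3 (-1.22, standard error 0.78) were listed at 0 in knockdown A and overlapped the controls in knockdown B. Without knockdown A they were -0.21 and -0.26. The other tested gene of Clic4's family, Clic1, measured 70.1 and 56.5 FPKM in controls, against 46.0 and 60.8 in the knockdown libraries, overlapping (log2 fold change -0.25, and -0.05 without knockdown A).

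Of the kinases, phosphatases and small GTPases that act on these proteins, 14 were tested, with a median of -0.10 that turned to 0.05 without knockdown A. The cofilin kinase Limk1 had control values of 5.21 and 5.93 FPKM and knockdown values of 0.581 and 4.06 FPKM. The cofilin phosphatases Ssh3 (-1.29) and Ssh1 (-1.16) were both listed at 0 in knockdown A, and Ssh1 reached 5.93 FPKM in knockdown B, above both controls. Without knockdown A the 3 values were -0.37 for Limk1, -0.69 for Ssh3 and 0.24 for Ssh1.

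The 8 tested genes that bind monomers had a median of 0.14, but they include Tmsb4x, Tmsb10 and Pfn1 of the set. Tmsb4x was chosen for being higher, so nothing is read from this median. Outside the set, Twf2, a twinfilin, was at 0.28 (standard error 0.33) and the low profilin gene Pfn4 at -0.51 (standard error 0.75). Pfn2 stood at -0.17, Cap1 at -0.01 and Twf1 at 0.11. Without knockdown A the median of the 8 was also 0.14, but Twf2 stood at 0.03 and Pfn4 at 0.20. Among 10 severing genes the median was -0.07, and -0.12 without knockdown A. Cfl2, the muscle-type cofilin, was at 16.6 FPKM in control A, 15.8 in control B, 5.52 in knockdown A and 11.1 in knockdown B (log2 fold change -0.96 with a standard error of 0.39, and a limma adjusted p = 0.918). Gsn, gelsolin, stood at -0.51 (standard error 0.46). Without knockdown A, Cfl2 was at -0.51 and Gsn at -0.22. The muscle actins Acta2 and Acta1 measured 6.48 and 8.30 FPKM respectively in control A, and 1.17 and 0.723 FPKM in control B. In knockdown they lay between 0 and 1.09 FPKM, so their differences of -1.48 and -1.25 rested on control A. Without it they were -0.59 and -0.04.

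Nucleation and elongation genes (21 tested, among them the Arp2/3 complex and formins) had a median of -0.11, and of 0.01 without knockdown A. Wasf1, an activator of the Arp2/3 complex, measured 1.73 and 2.56 FPKM in controls, against 4.24 and 5.00 in the knockdown libraries, both above both controls (log2 fold change 0.85, standard error 0.45). Evl, a filament elongation factor, stood at -0.80 (standard error 0.49), with 20.7 and 12.7 FPKM in controls and, in knockdown, 5.51 and 14.1 FPKM. Without knockdown A, Evl was at -0.19 and Wasf1 at 0.94. For 22 capping, crosslinking and myosin genes the median was -0.28, and -0.01 without knockdown A. The plastins Pls3 (-1.04) and Pls1 (-0.58) were lowest in knockdown A: Pls3 had control values of 10.8 and 9.07 FPKM and knockdown values of 1.86 and 8.88 FPKM. Without that library Pls3 was at -0.14 and Pls1 at 0.19. Serum response factor, Srf, which with its cofactors switches on actin genes when monomers run low, was at 9.41 FPKM in control A, 12.1 in control B, 2.10 in knockdown A and 11.96 in knockdown B. Its cofactor Mrtfb stood at -0.54 (standard error 0.43), and at -0.37 without knockdown A. The 3 genes of this group had a median of -0.54, which turned to 0.14 without that library. Epb41l3, Ssh3, Srf and Evl share their intervals with other loci, which makes their values uncertain.

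**Figure D4:**
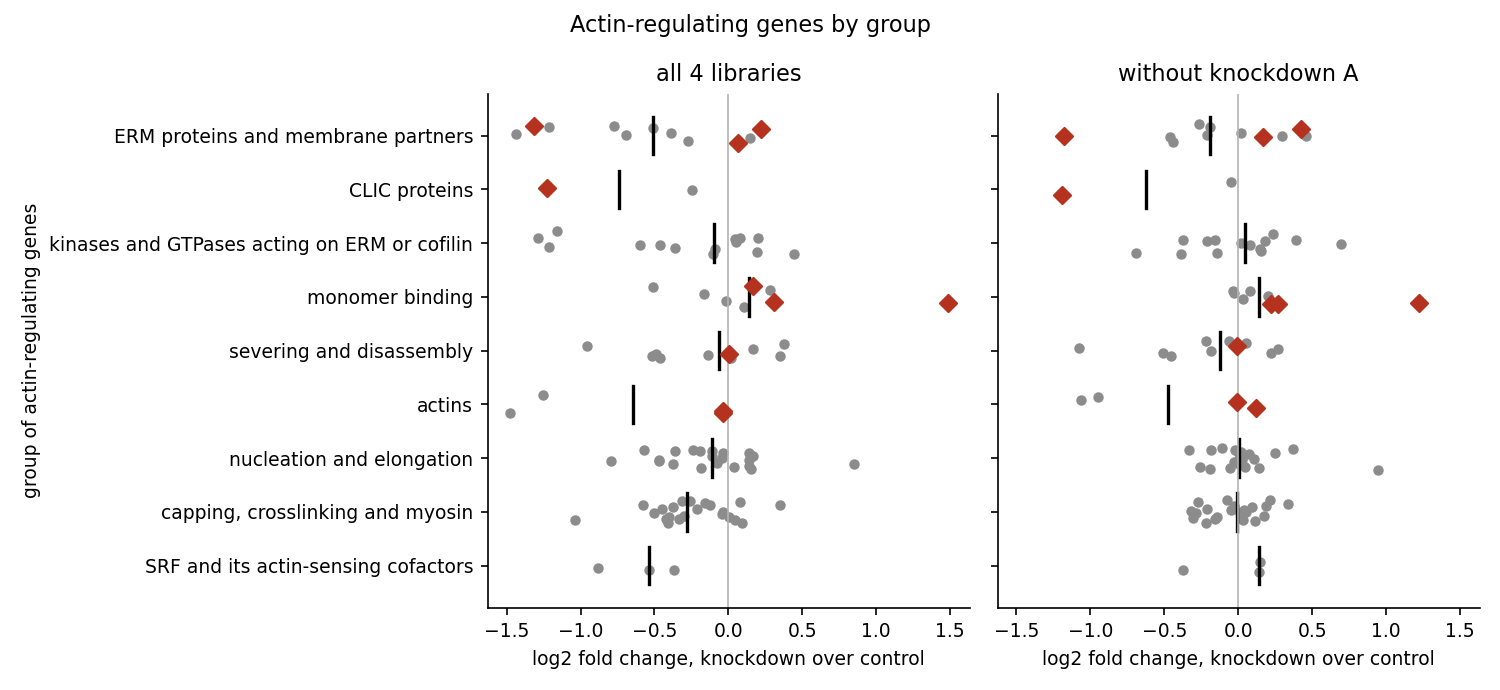
Log2 fold change of the 95 tested actin-regulating genes by group, with all 4 libraries (left) and without knockdown A (right); red diamonds are the 10 genes of the set and black bars the group medians. Without knockdown A the median of the whole list moves from -0.19 to 0.0078, while Ezr, Clic4 and Tmsb4x stand at -1.18, -1.19 and 1.22.

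The loci whose values followed Ezr and Tmsb4x most closely over the 4 libraries were found by distance between centred log2(FPKM + 1) values. For Ezr they were Klhl11 (distance 0.15), Serinc2 (0.19) and Hyls1 (0.30). Klhl11, for example, measured 19.8 and 26.2 FPKM in controls, against 8.25 and 10.9 in the knockdown libraries. For Tmsb4x they were Ndufs5 (0.21), Cyp2j9 (0.25) and Prss50 (0.26), of which Ndufs5 had control values of 19.9 and 32.9 FPKM and knockdown values of 74.7 and 58.7 FPKM. Serinc2, Cyp2j9 and Prss50 were low, at no more than 2.21, 4.16 and 5.78 FPKM in any library, where the added 1 weighs on the pattern. With 4 libraries such likeness is a description only.

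Markers of other cell types were read beside these results. Of 8 fibroblast markers 4 were tested, and the sum over the 8 of 80.1 and 126 FPKM in controls and, in knockdown, 142 and 96.4 FPKM was mostly Vim, which stem cells also express. Col1a1, Col1a2, Col3a1 and Postn lay at or under 0.379 FPKM in every library. The 4 tested markers had a median log2 fold change of -0.96, with 3 below 0. Thy1 (2.06 and 1.66 FPKM in controls, 0.197 and 0.306 in knockdown) and Acta2 lay below both controls, Twist1 was at -0.73 and Vim at 0.32. The 8 endoderm markers summed to 11.1 and 16.9 FPKM in controls and, in knockdown, 3.20 and 3.06 FPKM. Afp and Foxa2, at or under 0.240 FPKM in controls, were at 0 in both knockdown libraries. All 4 tested endoderm markers had log2 fold changes below 0, as had 6229 of all 11784 loci tested, with a median of -1.11. Without knockdown A, where Gata4 and Dab2 were at 0, the median was -1.20. Gata4 then stood at -0.23, Dab2 at -0.94, Gata6 at -1.45 and Cubn at -2.31. Cubn had control values of 4.23 and 7.39 FPKM and knockdown values of 0.272 and 0.338 FPKM. Gata6 overlapped, with 1.81 and 2.09 FPKM in controls and, in knockdown, 2.32 and 0.0785 FPKM. Its log2 fold change of -0.64 turned to 0.17 without knockdown B. The 6 trophoblast markers summed to 60.1 and 24.9 FPKM in controls and, in knockdown, 11.6 and 22.8 FPKM, mostly from the keratins Krt8 and Krt18. The 3 tested trophoblast markers had log2 fold changes of -0.81 (Krt8), -1.61 (Krt18) and -0.09 (Eomes). Cdx2, Elf5 and Gata3 lay at or under 0.604 FPKM in every library. The endoderm sum and Thy1 were thus lower in both knockdown libraries than in both controls, as were Ezr, Clic4 and 16.9% of all loci tested. The trophoblast sum and Acta2 were so only narrowly, at 22.8 against 24.9 FPKM and 1.09 against 1.17 FPKM in the B libraries. The fibroblast sum and Vim overlapped between the groups. The part of these markers in the Ezr and Clic4 differences was not tested.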

How the data were processed

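Ribosomal RNA-depleted RNA was made into dUTP strand-marked libraries from fragments of 300 bp, per the labels' protocols. The authors deposited FPKM per locus and library, made with Cufflinks and Cuffdiff on mm9, per the submitters' processing notes. The sources used here do not give versions, aligner, strand setting or the treatment of multiple matches.

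Loci were named through RefSeq identifiers (GRCm38.p6 table, names only); 23237 of 23697 received 1 symbol, and all 10 genes had 1 row. Deposited locus starts count from 0, since end minus start equalled the reference gene length at 7357 loci, so 1 was added. The 11784 loci whose mean reached 1 FPKM were fitted on log2(FPKM + 1), a scale that understates changes of low genes, with limma 3.58.1 in R 4.3.3 (group alone, eBayes with trend, Benjamini-Hochberg over all loci, two-sided) after a check on simulated data.

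Fragments were estimated from steps of low values, taking 200 bases off each GENCODE M21 transcript length; between 79.8% and 82.2% of these came within 0.15 of a whole fragment. FPKM carries no totals, so no counting interval was made. Coding sequences were aligned with Biopython 1.88, and copies searched with BLAST 2.17.0. Tables and figures used matplotlib 3.10.9, pandas 2.3.3 and numpy 2.4.6 in Python 3.11.15.

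The 10 genes and the lists were chosen with earlier results of these data known. Named genes are the 10, Kdm5b, the 2 list genes with the largest absolute log2 fold change in each of 9 groups, filled up to 20 with the next largest over the whole list, and the 3 protein-coding loci nearest in pattern to Ezr and to Tmsb4x. Pfn2, Cap1 and Twf1 were named as well, so that each monomer binder tested outside the set is given. Of the 109 listed genes, 106 were found. A planned comparison of proteins was made on coding sequences instead. Alternatives were pseudocounts, filters, scalings, eBayes without trend, the replicate letter as a block, the sum of a symbol's rows, and each library left out.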

Additional observations from a re-analysis of the deposited data

How the results depend on the processing

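Of the 10 genes, 0 passed the limma threshold under any alternative tried, and 3 had an absolute log2 fold change of at least 1 under each except without control replicate A, where there were 2. Other pseudocounts, filters, scalings and models left Ezr between -1.34 and -1.31, Clic4 between -1.26 and -1.23 and Tmsb4x between 1.47 and 1.49. The near-zero values of Cfl1 and Actb turned sign with scaling, Cfl1 to -0.01 with upper-quartile scaling and -0.03 with quantile normalization, and Actb to 0.09 with quantile normalization. Over all loci the 4 limma calls became 1 with no filter, 2 when eBayes used no trend and 7 with the replicate letter as a block. Nothing in the labels pairs libraries of the same letter, and the correlation of their deviations was -0.07 across 11784 loci; the block changed the call of 0 of the 10 genes. Leaving out 1 library gave 0 to 423 calls, the most without knockdown replicate B, where knockdown A alone is assumed to vary like the controls. The median of the wider actin list then ranged from -0.39 to 0.0078. With 2 libraries a group, Pfn1 and Rdx did not pass the limma threshold, though their knockdown libraries lay above both controls. Their log2 fold changes were 0.31 and 0.22, with standard errors of 0.20 and 0.23 that draw partly on other loci. The larger differences of Ezr, Clic4 and Tmsb4x did not pass the limma threshold either. As the set was chosen on these 3 genes, nothing is read from that. The fewest fragments estimated for any of the 10 genes in a library were 145, for Msn in knockdown A.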

Other observations

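The genes of the set listed as monomer-binding were also summed against the actins, a quantity formed after the values were seen. Other monomer binders of the wider list were left out. Tmsb4x was chosen for being higher in knockdown, so nothing is read from the difference in the sum. Tmsb4x, Tmsb10 and Pfn1 together were at 886 FPKM in control A, 972 in control B, 1762 in knockdown A and 1411 in knockdown B. Against the summed FPKM of Actb and Actg1 this was 33.5% and 47.1% in the controls and 79.3% and 60.7% in knockdown. Tmsb4x alone was 8.38% and 18.8% of Actb in controls and 44.3% and 29.5% in knockdown, whereas Cfl1 was 17.6% and 22.2% and then 21.0% and 19.8%. Ezr was 2.97% and 4.88% of Actb in controls and 1.44% and 1.67% in knockdown. These are ratios of RNA levels per length, with no test, and say nothing of protein.

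Among disassembly factors outside the named genes, Wdr1, a cofilin partner, measured 53.2 and 55.9 FPKM in controls, against 77.0 and 65.8 in the knockdown libraries. Coro1b, a coronin, stood at 54.5 and 43.0 FPKM and then at 33.5 and 35.0 FPKM. Both were chosen after their values were seen, and their log2 fold changes of 0.38 (standard error 0.23) and -0.49 (standard error 0.25) did not pass the limma threshold.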
